A study of Arabidopsis thaliana with 3 samples.

Results

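The genes described here make, regulate, move and break down glucosinolates and the related indole compound camalexin in Arabidopsis thaliana. They are 36 loci, taken by their locus names from the 25665 loci on the array. They were listed for their known place in the pathway, by a choice made with earlier results of these data known. All 36 had a probe, 33 passed the filter on dim and marked spots and were tested, and 19875 loci were tested in all. Whole seedlings carrying 35S:AtIBH1-SRDX in the Col-0 background were compared with wild-type Col-0 seedlings, both 10 d old and grown on agar with 1% sucrose in 16 h of light and 8 h of dark at 23 °C. IBH1 is a helix-loop-helix protein that restrains cell elongation, SRDX is a plant repression domain, and the 35S promoter is active in most tissues. RNA of the genotypes was hybridised together on 3 Agilent arrays of 2 colours, 1 for each of 3 biological replicates, with IBH1-SRDX in Cy3 on arrays 1 and 3 and in Cy5 on array 2. The labels do not say how many transgenic lines the seedlings came from.

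Glucosinolates are sulfur-rich defence compounds of the cabbage order, stored intact and cut by myrosinases when tissue is wounded. The aliphatic kind starts from methionine, whose side chain is first lengthened in the plastid, and the indole kind starts from tryptophan. In both, a CYP79 enzyme makes an aldoxime, a CYP83 enzyme oxidises it, and a lyase, a glucosyltransferase and a sulfotransferase finish the core. The indole aldoxime is also the source of camalexin, an antimicrobial compound that leaves make on infection. A trio of MYB factors controls each branch, MYB34, MYB51 and MYB122 the indole branch and MYB28, MYB29 and MYB76 the aliphatic branch.

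Each value is a log2 ratio, IBH1-SRDX over wild type, given for arrays 1, 2 and 3 in that order, and means carry the SE of limma with n = 3 arrays unless stated. A gene is said to be higher or lower where limma's Benjamini-Hochberg adjusted p over all tested loci was below 0.05. For 1 gene on 3 arrays an exact two-sided sign-flip p cannot fall below 0.25, so each call rests on the spread that limma pools over genes. The number of arrays limits the precision, no spot was saturated, and between 58.8% and 63.5% of the spots of a channel were well above background. The probe of IBH1 itself stood lower in the RNA labelled IBH1-SRDX (-0.71 ± 0.09) and that of SUP, the gene from which SRDX derives, higher (8.12 ± 0.11). The files do not place these probes within their transcripts, so they do not settle the labels, and each direction rests on the labels. In whole seedlings, fewer cells of a type and less RNA per cell cannot be told apart.

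Of the 33 tested members, 11 were higher (33.3%), 3 were lower (9.09%) and 19 were not called. Of the 11, CYP71A12 and CYP71A13 passed the filter on dim probes through IBH1-SRDX alone. Over all tested loci 18.6% were higher and 19.9% lower, 38.4% together, against 42.4% of the members. The members' median was 0.15 beside a median of 0.00 over all loci. The rises above 2-fold lay in the indole regulators, the indole enzymes and the camalexin genes, and the aliphatic genes moved by less than 2-fold. The counts fell to 5 higher and 1 lower when each array was centred on its median in place of loess, and equally when local backgrounds marked as outliers were kept. Calls over all loci fell too, from 3687 higher and 3949 lower to 591 and 674 with median centring. With those backgrounds kept they fell to 1143 and 1919.

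**Figure D1:**
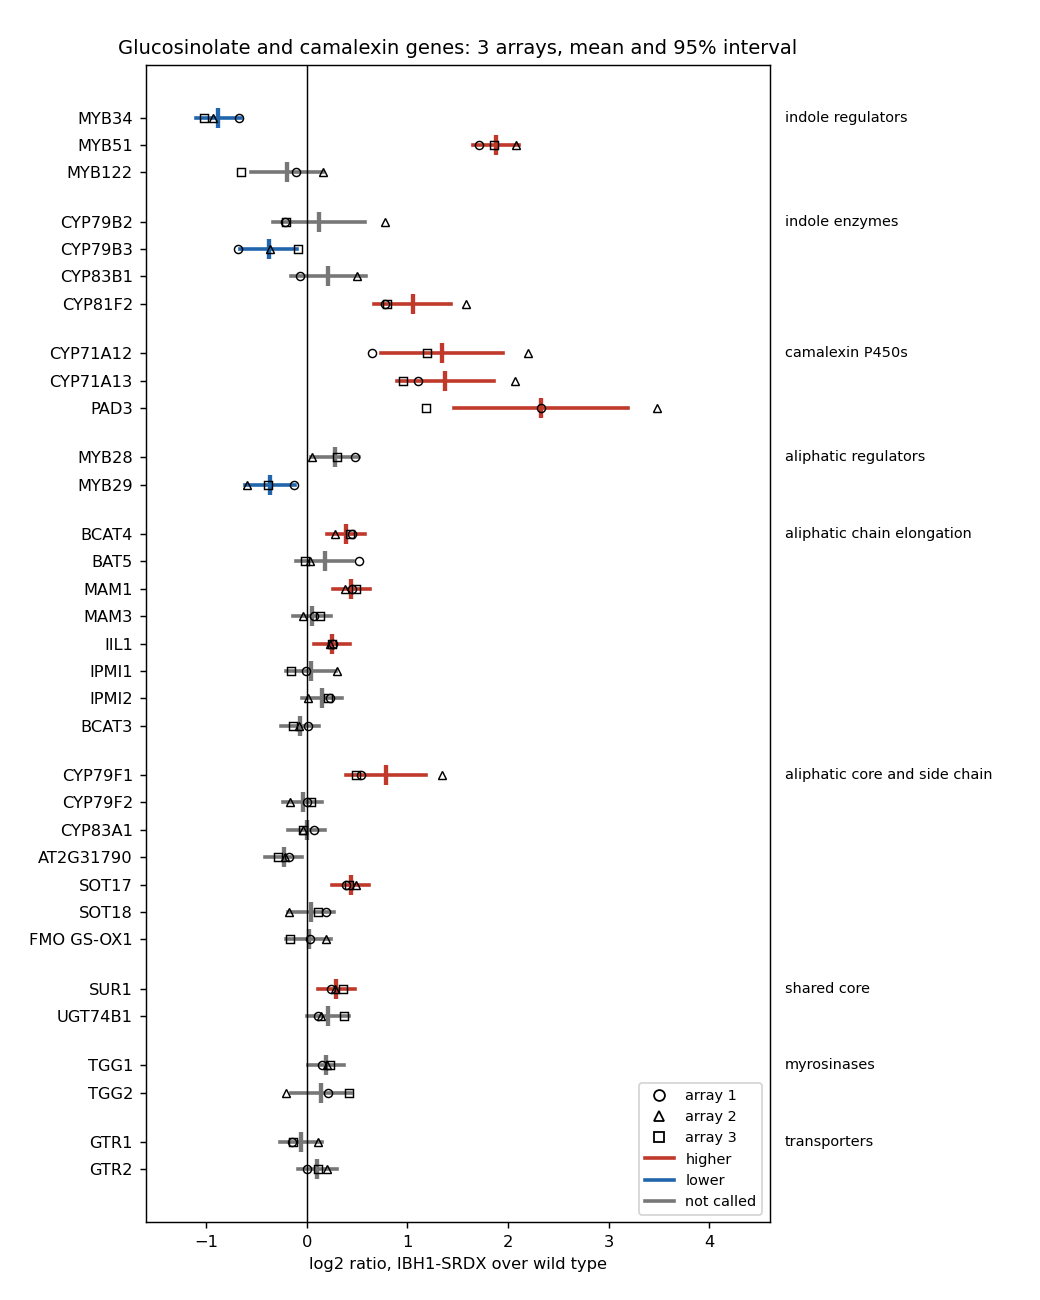
Log2 ratio of IBH1-SRDX over wild type for the 33 tested genes, grouped by role. Open symbols are the 3 arrays, the vertical mark is the mean and the line its 95% interval from limma, red where higher, blue where lower and grey where not called. MYB51 and PAD3 stand farthest to the right and MYB34 farthest to the left, and the mean of every aliphatic gene but CYP79F1 lies between -0.37 and 0.44.

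The indole regulators moved in opposite directions. MYB51 (AT1G18570), the regulator of indole glucosinolates that responds to pathogens and wounding, had ratios of 1.71, 2.08 and 1.86. It was 3.69-fold higher in IBH1-SRDX (1.88 ± 0.10, adjusted p = 4.81e-05). MYB34 (AT5G60890), also known as ATR1 and active in indole synthesis of unstressed plants, had ratios of -0.67, -0.94 and -1.02 and was lower (-0.88 ± 0.09, adjusted p = 0.000698). The MYB51 ratio exceeded that of MYB34 by 2.38, 3.02 and 2.88 on the arrays, so the opposite directions were seen on each. MYB122 (AT1G74080), the third member of the trio, had ratios of -0.10, 0.16 and -0.65 and was not called (-0.20 ± 0.15, 95% interval -0.55 to 0.16). In normalised signal, MYB51 stood between 491 and 514 units in wild type and between 1604 and 2179 units in IBH1-SRDX, with no overlap. MYB34 stood between 5531 and 5971 units in wild type and between 2722 and 3700 units in IBH1-SRDX, also apart.

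The enzymes of the indole branch did not follow a single direction. CYP79B2 (AT4G39950), which turns tryptophan into the aldoxime, had ratios of -0.22, 0.78 and -0.21 and was not called (0.12 ± 0.19, 95% interval -0.34 to 0.58). It was above 0 on array 2 alone, and without that array the mean was -0.21. CYP79B3 (AT2G22330), which does the same step, had -0.68, -0.37 and -0.08 and was lower by a small margin (-0.38 ± 0.12, adjusted p = 0.0441). That call ended without replicate 1 (-0.23, adjusted p = 0.265) and without replicate 2 (-0.38, adjusted p = 0.0887), and with a dye term (adjusted p = 0.0589), with median centring, with outlier local backgrounds kept and with the scanner program's own log ratio. CYP83B1 (AT4G31500), the next enzyme of the branch, was measured on arrays 1 and 2, at -0.06 and 0.50, and was not called (0.22 ± 0.15, n = 2). Its array 3 spot was marked as non-uniform and left out.

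CYP81F2 (AT5G57220), which hydroxylates the indole ring and is needed for a defence against fungi, was higher. Its ratios were 0.77, 1.58 and 0.80, a mean of 1.05 ± 0.16 (adjusted p = 0.00283), or 2.08-fold. Wild type stood between 524 and 556 units on the 3 arrays and IBH1-SRDX between 932 and 1571 units. The call ended with outlier local backgrounds kept (0.87, adjusted p = 0.0578). In the whole indole branch of 8 loci, 7 were tested, of which 2 were higher, 2 lower and 3 not called, beside the 18.6% and 19.9% of all loci.

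Of the 3 camalexin genes, PAD3 was higher and well above background in both genotypes, and CYP71A12 and CYP71A13 were called higher but well above background in IBH1-SRDX alone. PAD3 (AT3G26830), the cytochrome P450 that completes camalexin, had ratios of 2.33, 3.48 and 1.19 and was 5.04-fold higher (2.33 ± 0.36, adjusted p = 0.00307). Its signal was 462, 592 and 536 units in wild type and 2318, 6610 and 1222 units in IBH1-SRDX, apart on every array. CYP71A13 (AT2G30770), which makes indole-3-acetonitrile from the aldoxime, and CYP71A12 (AT2G30750), its close relative and near neighbour on chromosome 2, were not well above background in wild type on any of the arrays. Their count is therefore no support for a rise of the group, and they have only lower bounds. CYP71A13 had ratios of 1.11, 2.07 and 0.96 and gave 142, 401 and 118 units in IBH1-SRDX, on average at least 2.44-fold higher (adjusted p = 0.00244). CYP71A12 had 0.65, 2.20 and 1.19 and gave 102, 442 and 163 units, on average at least 2.47-fold higher (adjusted p = 0.00654). The bounds are means over the arrays, so single arrays can lie below them. They are set against the higher of the wild-type value and the lowest signal that counted as well above background. The fitted log2 ratios, which depend on how the dim channel is treated, were 1.38 for CYP71A13 and 1.35 for CYP71A12, but 4.62 and 3.90 with the scanner program's log ratio and 4.48 and 3.77 with the deposited series table. These bounds come from the separate channels and are open to dye bias.

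The probes of CYP71A12 and CYP71A13 may share signal, since the genes are near copies, so each is uncertain by itself. With outlier local backgrounds kept, CYP71A12 stood at 1.08 and CYP71A13 at 0.97, so the bounds hold for the main preparation only. Their calls then ended (adjusted p = 0.0982 and 0.108), and that of PAD3 was kept. The spread of PAD3 was wide, with an SD over the arrays of 1.15 against 0.19 for MYB51.

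**Figure D2:**
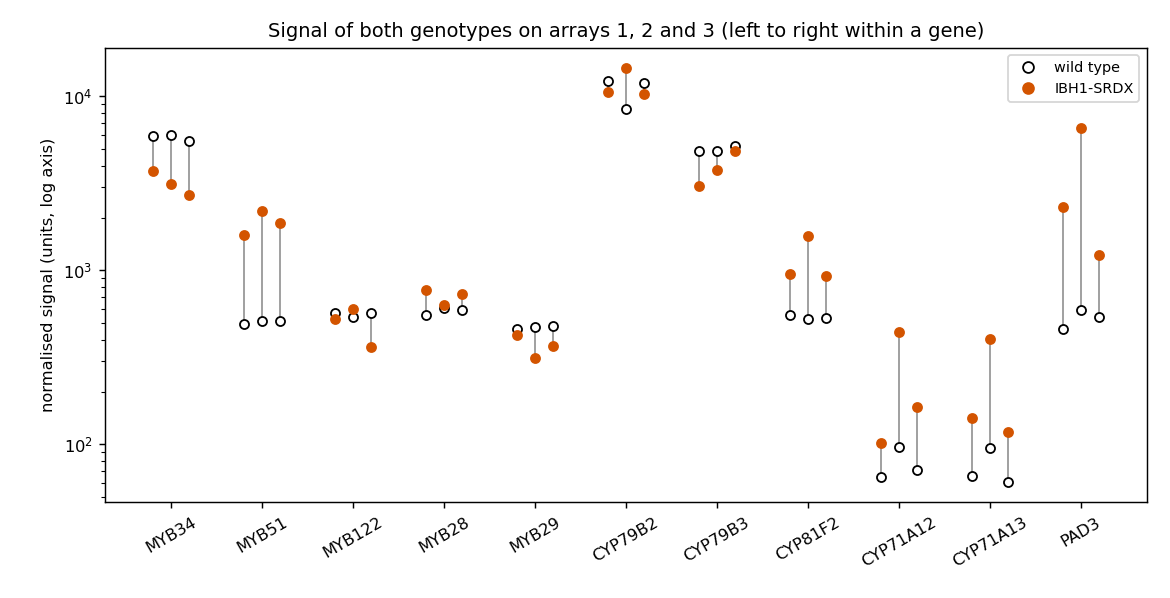
Normalised signal (log axis) of wild type (open) and IBH1-SRDX (filled) on arrays 1, 2 and 3, left to right within each gene, after loess and Aquantile. The IBH1-SRDX points of MYB51, CYP81F2, CYP71A12, CYP71A13 and PAD3 lie above wild type on every array, those of MYB34 below, and those of CYP79B2 above on array 2 alone. The wild-type points of CYP71A12 and CYP71A13 were not flagged as well above background on any array. Heights of different genes are not comparable.

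Salicylate response genes, which also rise in infected plants, were high in the same seedlings. Of 8 such genes on a list, 7 were higher, beside 18.6% of all loci, and 1 was not called. PR2 stood at 5.49, 4.76 and 3.87 (4.71 ± 0.26). PR1 passed the filter through IBH1-SRDX alone, since in wild type it was never well above background. Its place in that count is therefore no support for a rise of the list. The ratios of PR1 were 3.31, 4.27 and 0.44. Its fitted log2 ratio was 2.67, or 6.36-fold, with a 95% interval of 1.19 to 4.15. That fold is set against a dim wild-type channel and holds for the main preparation only. The call ended without replicate 2 (1.87, adjusted p = 0.0599) and with outlier local backgrounds kept (1.71, adjusted p = 0.158). The list's median was 1.96, 1.79 and 0.83 on the arrays. Array 3 was the lowest for all 8 salicylate genes, beside 6234 of 19615 loci. It was also the lowest for PAD3 and CYP71A13, but array 1 was the lowest for CYP71A12, MYB51 and CYP81F2. Array 2 was the highest for 3 of the 8 (37.5%), beside 40.9% of all loci, and for all 3 camalexin genes. The part of an immune response in the camalexin values was not tested.

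The aliphatic regulators moved little. MYB28 (AT5G61420), the main activator of methionine-derived glucosinolates, had ratios of 0.48, 0.06 and 0.30 and was not called (0.28 ± 0.10, adjusted p = 0.0659, 95% interval 0.04 to 0.52), though it was called higher without replicate 2 (0.39, adjusted p = 0.0163). MYB29 (AT5G07690), which acts beside it and in responses to jasmonate, had -0.13, -0.59 and -0.38 and was lower (-0.37 ± 0.10, adjusted p = 0.0301). The MYB29 call ended without replicate 2 (-0.26, adjusted p = 0.074), with outlier local backgrounds kept and with median centring. MYB76 (AT5G07700), the direct neighbour of MYB29, was not well above background in either genotype on any array and was not tested.

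In the chain elongation group, where methionine loses its amino group and gains carbons, 3 of 8 tested genes were higher and 0 lower, with a median of 0.17. The share called was 37.5%, near the 38.4% of all loci. BCAT4 (AT3G19710), the aminotransferase of the opening step, had ratios of 0.45, 0.28 and 0.43 (0.39 ± 0.08, adjusted p = 0.00909). MAM1 (AT5G23010), the condensing enzyme for short chains, had 0.45, 0.39 and 0.49 (0.44 ± 0.08, adjusted p = 0.00465), or 1.36-fold. IIL1 (AT4G13430), the large subunit of the isomerase, had 0.26, 0.23 and 0.25 (0.25 ± 0.08, adjusted p = 0.038). The arrays of these genes lay close together and the changes were small. The BCAT4 call ended without replicate 1 (0.36, adjusted p = 0.0751) and the IIL1 call without replicate 1 (0.24) or replicate 3 (0.25). Both calls also ended with the deposited series table and with median centring, and the IIL1 call with outlier local backgrounds kept.

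The other 5 genes of that group were not called. MAM3 (AT5G23020), the enzyme for long chains and the neighbour of MAM1, stood at 0.06 ± 0.08 (95% interval -0.13 to 0.25), and the MAM1 ratio exceeded it by 0.38, 0.43 and 0.36 on the arrays. The isomerase small subunit genes IPMI1 (AT3G58990) and IPMI2 (AT2G43100) stood at 0.05 ± 0.11 and 0.15 ± 0.08. BAT5 (AT4G12030), a plastid transporter of the 2-keto acids, stood at 0.18 ± 0.12, with 0.52 on array 1 and 0.03 and -0.01 on the others. BCAT3 (AT3G49680), the aminotransferase of the closing step, stood at -0.07 ± 0.08.

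In the core and side chain group of 7 genes, CYP79F1 (AT1G16410) and SOT17 (AT1G18590) were higher, 0 were lower and the median was 0.02. The share called was 28.6%, beside 38.4% of all loci. CYP79F1, which makes aldoximes of chain-elongated methionine, had ratios of 0.54, 1.34 and 0.49 and was 1.73-fold higher (0.79 ± 0.17, adjusted p = 0.01). That call ended with outlier local backgrounds kept (0.70, adjusted p = 0.068) and with median centring (0.68, adjusted p = 0.265). Wild type stood at 1626, 1457 and 1636 units and IBH1-SRDX at 2359, 3695 and 2297 units, apart on every array and widest on array 2. Another CYP79F1 probe gave 0.25, 0.23 and 0.27, but it was well above background in IBH1-SRDX on 2 arrays and in wild type on 0, and was not used. CYP79F2 (AT1G16400), the adjacent gene with a preference for long chains, stood at 0.01, -0.16 and 0.04 (-0.04 ± 0.08, 95% interval -0.24 to 0.16). The CYP79F1 ratio exceeded that of CYP79F2 by 0.53, 1.51 and 0.45, although signal shared by their probes cannot be told apart here.

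SOT17, a sulfotransferase of the closing core step, had 0.39, 0.49 and 0.42 (0.44 ± 0.08, adjusted p = 0.00489), while its relative SOT18 (AT1G74090) had 0.19, -0.17 and 0.12 and was not called (0.04 ± 0.10). CYP83A1 (AT4G13770), which oxidises the aliphatic aldoximes, stood at 0.07, -0.03 and -0.04, with a 95% interval of -0.18 to 0.18. AT2G31790, to which the reference gives no symbol, had -0.18, -0.22 and -0.28 (-0.23 ± 0.08, adjusted p = 0.0557). It was called lower with a dye term (adjusted p = 0.0396), with the scanner program's log ratio and in the deposited table of the series. FMO GS-OX1 (AT1G65860), which oxidises the sulfur of the side chain, stood at 0.02 ± 0.09.

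Over the aliphatic branch, 5 of 17 tested genes were higher (29.4%), 1 was lower (5.88%) and 11 were not called. The share called in either direction was 35.3%, near the 38.4% of all loci. The intervals of all 11 lay between -1 and 1, so a 2-fold change of any of them lies outside its 95% interval. With median centring 0 genes of this branch were called in either direction, 3 were higher and 2 lower with the deposited series table, and with the scanner program's log ratio 5 were higher and 2 lower.

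Of the steps shared by the branches, SUR1 (AT2G20610), the C-S lyase, had ratios of 0.24, 0.28 and 0.36 and was higher (0.29 ± 0.08, adjusted p = 0.0237). The SUR1 call ended without replicate 1 (0.32) or replicate 3 (0.26). It also ended with outlier local backgrounds kept, with the deposited series table and with median centring. The glucosyltransferase UGT74B1 (AT1G24100) stood at 0.21 ± 0.09 (adjusted p = 0.1). The myrosinases TGG1 (AT5G26000) and TGG2 (AT5G25980), which lie near each other on chromosome 5 and may share signal, were not called, at 0.19 ± 0.08 and 0.14 ± 0.12. TGG1 had 0.15, 0.20 and 0.23 on the arrays and TGG2 0.21, -0.20 and 0.42, and TGG2 was called higher without replicate 2 (0.32, adjusted p = 0.0341). The transporters GTR1 (AT3G47960) and GTR2 (AT5G62680), which load glucosinolates into the phloem, had -0.15, 0.11 and -0.14 and 0.00, 0.20 and 0.11, and were not called. Of 8 genes that mark guard cells and their lineage, where myrosinase is also made, 1 was higher and 7 were not called, with FAMA at 0.23 ± 0.08. The share called was 12.5%, beside 38.4% of all loci.

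The contrast of the branches changed with the array. The median over the indole genes was -0.10, 0.50 and -0.15 on arrays 1, 2 and 3, and that over the aliphatic genes was 0.19, 0.03 and 0.12. The aliphatic median was thus above the indole median on arrays 1 and 3 by 0.29 and 0.26, and below it by 0.47 on array 2. On the fitted means the difference was -0.06, and it was 0.36 without replicate 2. With the camalexin genes counted in the indole branch it was -0.58, a value that includes the fitted ratios of CYP71A12 and CYP71A13. Indole genes ran from -0.88 for MYB34 to 1.88 for MYB51, and aliphatic genes from -0.37 for MYB29 to 0.79 for CYP79F1. As the members were chosen with earlier results known, these differences are a description without a test.

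**Figure D3:**
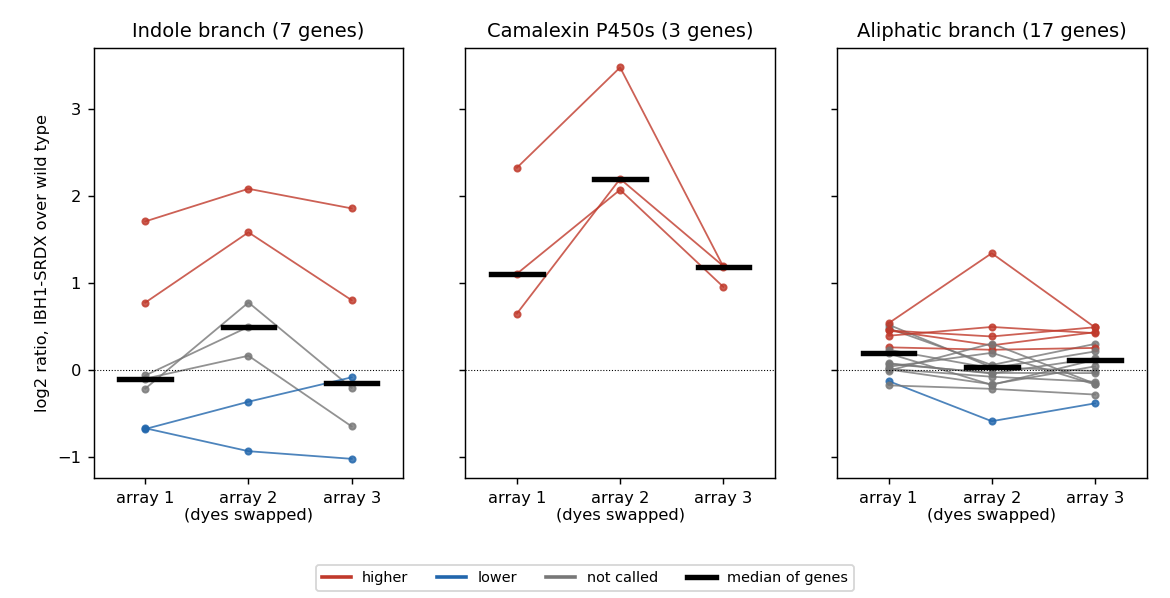
Log2 ratio of IBH1-SRDX over wild type of each gene on the 3 arrays, joined by lines, in the indole branch, the camalexin genes and the aliphatic branch. Black bars are medians over the genes on an array. The indole median is highest on array 2, at 0.50, and the aliphatic median is lowest there, at 0.03. The ratios of CYP71A12 and CYP71A13 are set against a dim wild-type channel.

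Array 2 is the array with swapped dyes, so replicate 2 and dye orientation cannot be told apart. Of the 6 indole branch genes measured on all arrays, 4 were highest on array 2 (66.7%), against 4 of 17 aliphatic genes (23.5%) and 40.9% of all loci. With a term for dye in the fit, array 2 was matched exactly, and a gene's own spread came from the other arrays alone. CYP79B2 was then called higher (0.28, adjusted p = 0.0163), though its ratio was above 0 on array 2 alone. Its SE fell from 0.19 to 0.06. In that fit 0 of all loci had a dye effect at an adjusted p below 0.05. With so few arrays it could hardly find such an effect, so that count is no measure of dye bias.

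Besides MYB76, 2 members were not tested because their spots were marked as non-uniform. The spots of SOT16 (AT1G74100), the sulfotransferase that prefers indole substrates, were marked on all 3 arrays though bright in each channel. Read in spite of the marks, SOT16 had 0.39, 0.49 and 0.74 (0.54 ± 0.09, adjusted p = 0.00474 with outlier spots kept). IMD1 (AT5G14200), the dehydrogenase of chain elongation, was unmarked on 1 array, and read the same way stood at -0.02, -0.02 and -0.10. Keeping marked spots was an alternative chosen after seeing the data.

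The genes that supply or surround the pathway, 79 on a list and 74 of them tested, were higher in 35 cases (47.3%) and lower in 8 (10.8%), beside 18.6% and 19.9% of all loci, and the counts by list are to be read against those shares. Tryptophan synthesis, the source of the indole branch, had 7 higher and 1 lower of 10 tested genes, with a median of 0.50. TSB1, the beta subunit of tryptophan synthase, had ratios of 0.93, 1.27 and 1.24 (1.15 ± 0.09), and TRP1, which joins anthranilate to the ribose unit, had 1.08, 1.27 and 0.88 (1.08 ± 0.10). PAI1, the isomerase of that route, was lower at -0.33 ± 0.08, a call that ended without replicate 1 (-0.30), and is one of several near copies. The list had its highest ratio on array 2 in 8 of 10 genes, as did most indole genes.

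In the sulfate list the lower genes were transporters. The root uptake transporters SULTR1;2, at -1.24, -0.87 and -1.46 (-1.19 ± 0.12), and SULTR1;1, at -0.30, -0.98 and -0.86 (-0.71 ± 0.14), were the 2 lower genes. Of the 15 members 7 were higher, among them APS4, an ATP sulfurylase, at 0.85, 0.84 and 0.82 (0.84 ± 0.08), and APR2, an adenylylsulfate reductase, at 0.52 ± 0.08. The sulfur deficiency markers had 2 higher and 0 lower of 4 tested, AT1G04770 at 0.71 ± 0.09 and LSU2 at 0.43 ± 0.14. The LSU2 ratios were 0.60, 0.70 and 0.00, and the call ended without replicate 1 (0.35) or replicate 2 (0.30). Of 13 root markers in the same RNA 8 were lower and 1 higher, beside 19.9% and 18.6% of all loci, and 4 were not called. CASP1 stood at -1.06 ± 0.10. The list median was -0.57, -0.59 and -0.29 on the arrays, and the genes ranged from -1.74 to 0.44. Of 6 green shoot markers 3 were also lower and 0 higher, with a median of -0.39. The part of either tissue in the values of the root transporters was not tested.

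Glutathione synthesis and conjugation, which gives the sulfur donor of the core, had 7 higher and 0 lower of 8 genes, with a median of 0.48. GGP1, the peptidase that trims the conjugates, had 0.43, 0.63 and 0.65 (0.57 ± 0.08), and GSTU20, a glutathione transferase, had 0.49, 0.72 and 0.35 (0.52 ± 0.09). Among 6 other regulators, 4 were higher and 1 lower. WRKY33, which binds the PAD3 promoter, had 1.10, 1.96 and 1.11 (1.39 ± 0.17, adjusted p = 0.00115), and MYC3, a bHLH partner of the MYB factors, stood at 0.64 ± 0.10. IQD1 was lower at -0.37 ± 0.10, a call that ended without replicate 1 (-0.32) or replicate 3 (-0.29).

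Further indole enzymes had 2 higher and 1 lower of 7 tested. AT1G26380, to which the reference gives no symbol, had 1.26, 2.39 and 1.08 (1.58 ± 0.23), CYP81F1 stood at 0.26 ± 0.08 and CYP81F4, which modifies the ring at another position than CYP81F2, at -0.85, -0.02 and -0.93 (-0.60 ± 0.17). The CYP81F4 call ended without replicate 1 (-0.48), and the CYP81F1 call without replicate 1 (0.26) or replicate 3 (0.28). Further aliphatic enzymes had 1 higher and 2 lower of 8 tested, with the side chain oxygenases FMO GS-OX5 at -0.42 ± 0.08, FMO GS-OX4 at -0.40 ± 0.08 and FMO GS-OX3 at 0.34 ± 0.08. The calls of the last pair ended without replicate 1, at -0.37 and 0.33.

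Among 16 genes of breakdown and its products, 5 were higher and 1 lower, or 37.5% called beside 38.4% of all loci. ESP, which turns breakdown toward nitriles, stood between -1.52 and -0.90 on the 3 arrays and was 2.21-fold lower (-1.14 ± 0.13, adjusted p = 0.000835). The nitrilase NIT1 had 0.88, 1.13 and 1.04 (1.01 ± 0.09), and NIT2 had 1.33, 3.16 and 1.46 (1.98 ± 0.33). NIT2 was 3.96-fold higher over all arrays and its log2 ratio was 1.40 without replicate 2. Nitrilase genes are near copies whose probes may share signal. With median centring, only TSB1, TRP1, NIT2, SULTR1;2, ESP, WRKY33 and AT1G26380 kept their calls among the pathway genes named from these lists. GGP1, for example, then had an adjusted p of 0.741 and GSTU20 of 0.811 in limma. With outlier local backgrounds kept, the calls of SULTR1;1, LSU2, AT1G26380, CYP81F1, CYP81F4, FMO GS-OX3, FMO GS-OX4 and IQD1 ended.

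**Figure D4:**
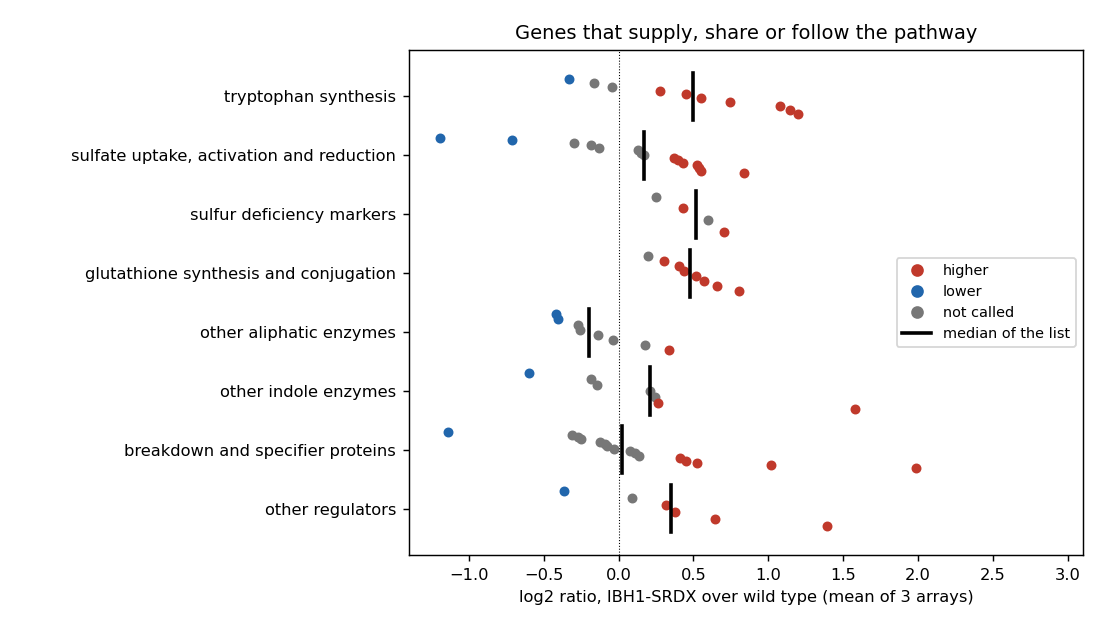
Mean log2 ratio of IBH1-SRDX over wild type for the 74 tested genes that supply, share or follow the pathway, in 8 lists, with red for higher, blue for lower and grey for not called. Black bars are list medians. The tryptophan synthesis, sulfur deficiency and glutathione lists have medians of 0.50, 0.52 and 0.48, and the further aliphatic enzymes have a median of -0.20.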

How the data were processed

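The members and lists were chosen with earlier results of these data known. The deposited scanner files hold spot and background intensity values, a log10 ratio of Cy5 over Cy3 and flags, per the file headers. The scanner program was Agilent Feature Extraction 9.1.3.1, according to the submitters' processing notes, and the labels' protocols give 1 µg of RNA. In the deposited series table the values are natural log ratios, a scale and sign found here from the values (slope 1.00 against the scanner ratios, with a constant of -0.0929; column medians 0.00195, -0.225 and 0.00455). How its dim probes were set is unknown.

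Median signals were corrected with normexp (offset 50), with local backgrounds marked as outliers set to the array's median, and normalised by loess with control spots at weight 0. Marked spots were left out (91 to 189 per array). A locus was tested, by its brightest probe, if either genotype passed the well-above-background flag on every array and at least 2 arrays had unmarked spots. Log2 ratios, turned to IBH1-SRDX over wild type, were tested against 0 in limma 3.58.1 (R 4.3.3, functions lmFit and eBayes; 2 residual and 4.88 prior degrees of freedom), and the fit was tested on simulated data. All members are named. From each pathway list the 2 genes with the smallest adjusted p in each direction are named, and from the marker lists CASP1, FAMA, PR1 and PR2. Symbols came from the TAIR10.1 gene table. The sources used here give no probe, promoter or protein sequence, so none is shown and the planned motif search was not run.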

Additional observations from a re-analysis of the deposited data

How the results depend on the processing

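MYB34, MYB51 and PAD3 kept their direction and call under all 12 alternatives to the preparation and fit, and the other 11 called members lost their call, or were not tested, under at least 1 and kept their direction wherever tested. CYP71A12 and CYP71A13 were tested under 11 of the 12. The fit is paired by construction, since each ratio is formed within an array that holds both genotypes of 1 replicate, and no further block could be added. Over all loci, 3687 were higher and 3949 lower; the counts were 1143 and 1919 with outlier local backgrounds kept, 591 and 674 with median centring, 2327 and 2502 without replicate 1, and 2480 and 6369 with the deposited series table, whose median over all loci was -0.15. The number of arrays and the spread between them limit what could be called.

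Among the members, 11 higher and 3 lower became 5 and 1 with outlier local backgrounds kept and with median centring, and 8 to 13 and 1 to 3 when an array was left out. In the indole branch, 2 higher and 2 lower became 1 and 1 with outlier local backgrounds kept; 3 were higher with a dye term, with the deposited series table and with outlier spots kept; 1 was lower with the scanner ratio of Feature Extraction, with median centring, with a dye term and, as the lowest count of 1 to 2, when an array was left out. In the aliphatic branch, 5 higher and 1 lower became 3 and 0 with outlier local backgrounds kept, 3 and 2 with the deposited series table, 0 and 0 with median centring, 5 and 2 with that scanner ratio or a dye term, and 3 to 6 and 0 to 1 when an array was left out. The 3 camalexin calls became 1 with outlier local backgrounds kept and 1 where both genotypes had to be above background, since 2 of the genes then were not tested. The aliphatic minus indole difference of -0.06 was -0.58 with the camalexin genes in the indole branch and -0.24 to 0.36 when an array was left out.

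Signs turned for members that were not called. With the deposited series table, BAT5 stood at -0.0045, MAM3 at -0.067, IPMI1 at -0.082, IPMI2 at -0.024, SOT18 at -0.14, FMO GS-OX1 at -0.037, TGG2 at -0.018 and GTR2 at -0.045. With median centring, CYP79B2 stood at -0.026, MAM3 at -0.10, IPMI1 at -0.066, SOT18 at -0.11, FMO GS-OX1 at -0.078, TGG2 at -0.018 and GTR2 at -0.0056. CYP83A1 stood at 0.0079 with outlier local backgrounds kept. The Feature Extraction ratio gave 0.0048 for CYP79F2 and -0.0025 for SOT18, and a dye term gave -0.0093 for SOT18. When an array was left out, the ranges were -0.38 to 0.031 for MYB122, -0.21 to 0.29 for CYP79B2, -0.063 to 0.50 for CYP83B1, -0.084 to 0.15 for IPMI1, -0.079 to 0.024 for CYP79F2, -0.035 to 0.017 for CYP83A1, -0.028 to 0.15 for SOT18 and -0.065 to 0.12 for FMO GS-OX1. The causes were not tested.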
